A study of Mus musculus with 2 samples.

Results

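The genes of the core splicing machinery and of its best known regulators were compared between sorted populations of mouse leukaemia cells. They were chosen by symbol: the SR proteins (Srsf genes), the related Tra2a and Tra2b, the hnRNP proteins (Hnrnp genes), the Sm and snRNP proteins (Snrp genes), the SF3A and SF3B subunits (Sf3a and Sf3b genes) and the U2AF proteins (U2af genes). Of 20659 genes that the array's probes could be matched to, 56 met this rule, with 93 of 39429 probes. No probe was matched to another 6 symbols of these families, among them Srsf11. After spots with an outlier flag were left out, 55 genes with 91 probes remained, and 51 of them were measured, that is well above background on at least 1 probe, on both arrays.

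Both populations came from Mus musculus bone marrow and are labelled as B-ALL, a leukaemia of B-cell precursors, with an age label of 8 weeks. The cells were sorted by the emission ratio of SoNar, a fluorescent protein sensor of the cytosolic NADH/NAD+ balance, into SoNar-high and SoNar-low cells. The sample titles say N-myc-high and N-myc-low in place of these names, and the labels do not say how the leukaemia was made, the strain, or how many animals were pooled. Each population gave total RNA for 1 one-colour Agilent array, so no difference below has a replicate check and no test between the populations was possible. With sorted cells measured in bulk, a lower value in fewer cells and a lower value in every cell cannot be told apart.

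Splicing removes introns from newly made transcripts. Small nuclear ribonucleoproteins (snRNPs), made of an RNA, a ring of Sm or Sm-like proteins and proteins particular to each, recognise the intron: U1 pairs with the 5′ splice site, U2AF binds the 3′ splice site, and U2, held by SF3A and SF3B, pairs with the branch site. SR proteins and the Tra2 proteins bind exons and promote their inclusion, and many hnRNP proteins oppose them. Several of these genes carry ultraconserved exons whose inclusion sends the transcript to decay, and this keeps the amount of the protein in bounds. In leukaemia this group is known for recurrent mutations, above all in SF3B1, SRSF2 and U2AF1.

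Because Tra2b and Tra2a had the lowest and the second highest difference of all members, the stretches in front of them are shown first, beside those of the other members with a full cAMP response element. The sequences are RefSeq's for GRCm38.p6, read 5′ to 3′ on the gene's strand. The first is the 250 bases before the start of Tra2b on the minus strand (chr16:22266006-22266255), where the table lists no overlapping gene, and capitals mark a short form of the element (CGTCA, 61 bases before the start). The other 3 are windows of 30 bases, with capitals on the full element TGACGTCA: Tra2a (minus strand, chr6:49264061-49264090), Snrpa (minus strand, chr7:27196366-27196395) and Snrpg (plus strand, chr6:86371480-86371509).
Tra2b: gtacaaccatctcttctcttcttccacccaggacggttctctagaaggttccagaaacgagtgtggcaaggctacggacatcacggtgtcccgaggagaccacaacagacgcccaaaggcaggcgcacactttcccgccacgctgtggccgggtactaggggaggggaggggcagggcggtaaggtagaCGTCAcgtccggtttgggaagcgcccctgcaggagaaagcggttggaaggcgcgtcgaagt
Tra2a: ggtccgcccctTGACGTCAggcgccgggga
Snrpa: ccaggaggaaaTGACGTCAcccggccagcc
Snrpg: tcgcgcggcggTGACGTCAgacaccagcgc

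Promoters were found for 49 of the 56 members, and the 250 bases before the most upstream start in the promoter set were searched on both strands. Many of these windows overlap an annotated gene. For many members, Tra2a among them, this gene is the member itself, so such a window lies at least partly within it. The Snrpa window overlaps BC024978, and none is listed for Snrpg. The short form (TGACG, or CGTCA on the other strand) stood in 20 of the 49 (40.8%) and in 17.8% of 27025 RefSeq promoters. The full element, which always holds the short form, stood in 3 (6.12%) and in 1.60%. Splicing genes outside these families were between these shares, with the short form in 38 of 115 (33.0%) and the full element in 5 (4.35%). The E-box CACGTG, a motif of MYC-family factors, stood in 3 members (6.12%) and in 6.04% of all promoters. The 20 measured members with the short form had a median difference of 0.36 and the 25 measured members without it one of 0.34, so the values did not separate by it. These matches describe letters in a window and not binding.

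Values below are processed signals in intensity units, which are not scaled between arrays, with the scanner software's own error of the spot. A difference is log2 of the signal over its array's 75th percentile (409 units for SoNar-high and 470 for SoNar-low), SoNar-high minus SoNar-low, and a gene's difference is the mean over its probes measured on both arrays. A gene was called at 2-fold or more, which is a rule of size. The software's errors give a log2 error of 0.20 for the median member probe, which covers the spot only. Of all 10521 genes with a difference, 4.39% were called lower and 2.4% called higher in SoNar-high cells, and the median gene stood at 0.22 (quartiles -0.15 and 0.52).

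Of the 51 measured members, 1 was called lower in SoNar-high cells (Tra2b) and 0 were called higher, and the other 50 lay between -0.77 and 0.83. Read against the 4.39% and 2.4% of all genes, these counts are no result about the families as a whole. The members' median was 0.32 (quartiles 0.02 and 0.50), and 39 of 51 lay above 0, as did 66.9% of all genes. Relative to the median gene the members' median was 0.098, which became -0.062 under quantile normalization, -0.059 under loess on the level, -0.037 with only the brighter probes and -0.044 in the deposited series matrix, so no direction is given for the group. Median scaling moved every gene up, to a median gene of 0.79. It put 18 members at least 2-fold higher and 1 lower, beside 32.1% and 1.33% of all genes. Scaling on probes above background on both arrays moved the median gene to -0.073, and loess moved it to 0.11. The former of these gave 0 members higher and 2 lower, beside 0.580% and 8.11% of all genes.

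**Figure D1:**
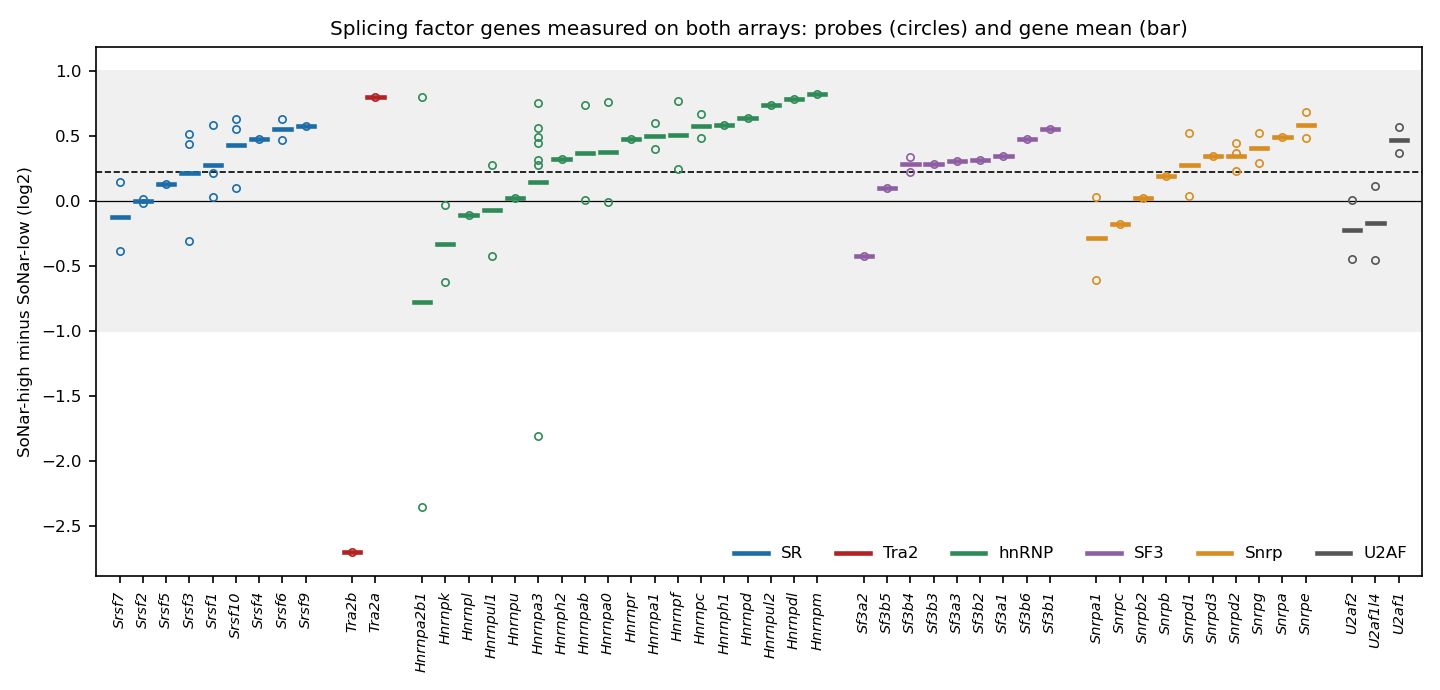
Difference between the arrays (SoNar-high minus SoNar-low, log2) of the 51 splicing factor genes measured on both, by family, with a circle for each probe and a bar for the gene's mean. The shaded band is less than 2-fold, the dashed line is the median of all genes (0.22), and of the gene means only that of Tra2b (-2.70) lies outside the band.

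The Tra2 proteins are close relatives that bind GAA-rich exon elements, and here the single probes of the pair moved apart. The Tra2b probe read 145 ± 18.4 units for SoNar-high and 1084 ± 109 units for SoNar-low. It was well above background on both, and the scaled difference was -2.70 ± 0.23 (software error), 6.50-fold lower in SoNar-high cells. This lay at percentile 0.0855 of all genes, and across the alternative processings that measured the gene it ranged from -3.00 to -2.14. With only the brighter probes Tra2b was not measured. The value rests on 1 probe, and no second probe of the gene can be set beside it. Of Hnrnpa2b1 and Hnrnpa3, 1 probe each was also far lower on SoNar-high (-2.35 and -1.81), while the brighter probes of these genes were not. Snrpc was similar, with a dim probe at least 7.36-fold lower and a bright one at -0.18. On SoNar-low these low probes read 451, 517 and 393 units. Other member probes that were dim on SoNar-high were not far lower. Among them were probes of Hnrnpa0 (-0.01), Sf3b4 (0.22), Srsf3 (0.51), Srsf7 (0.15) and U2af2 (-0.45 and 0.01). The Tra2a probe read 7923 ± 792 units on the SoNar-high array and 5240 ± 524 on the SoNar-low array, a difference of 0.80 ± 0.20, at percentile 92.0 of all genes. Tra2a was thus the higher on SoNar-high of the pair and Tra2b the lower. Scalings that shift every gene alike cannot change the gap between them. Under quantile normalization, which is not such a shift, Tra2a stood at 0.54 and Tra2b at -2.68.

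**Figure D2:**
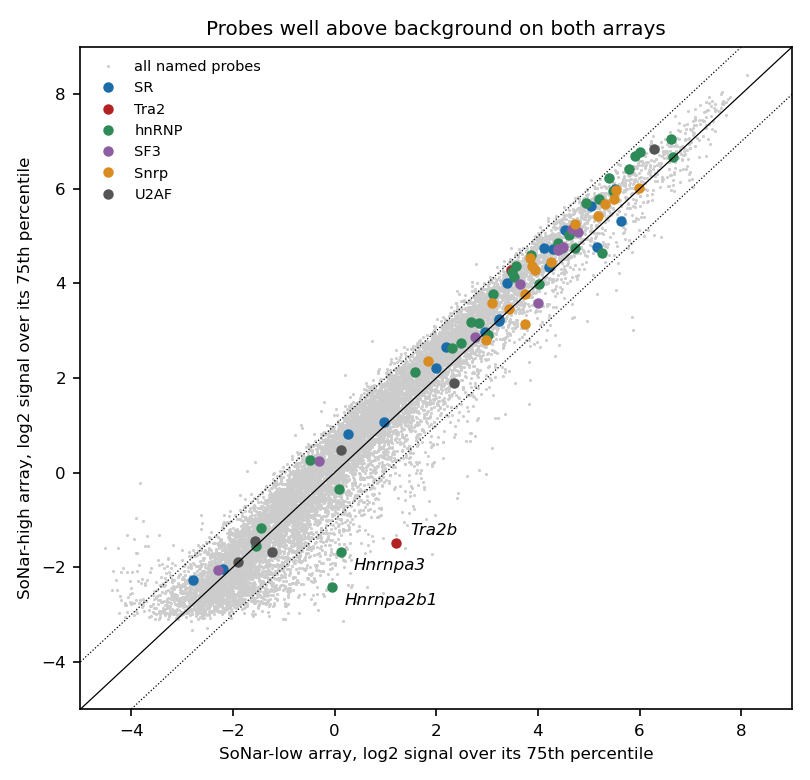
Log2 signal over the array's 75th percentile on the SoNar-low (x axis) and SoNar-high array (y axis) for the probes well above background on both, with the splicing factor probes in colour by family and the other named probes in grey. The solid line marks equal values and the dotted lines 2-fold differences; 3 member probes, of Tra2b, Hnrnpa3 and Hnrnpa2b1, lie below the lower dotted line.

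The SR proteins bind exonic enhancers through RNA recognition motifs and contact the U1 snRNP and U2AF through their arginine-serine domains. Of 10 SR genes on the array 9 had a difference, 0 differed by 2-fold, and their values ran from -0.12 to 0.58 with a median of 0.28. The highest were Srsf9 (0.58) and Srsf6 (0.55), followed by Srsf4 (0.48) and Srsf10 (0.43). Srsf9 read 14245 units for SoNar-high and 10959 for SoNar-low. Srsf1, the founding member and a known oncoprotein, had 3 probes at 0.58, 0.22 and 0.03, a mean of 0.28. Srsf2, which is mutated in myeloid neoplasms, stood at 0.00, with probes at -0.01 and 0.01. One Srsf2 probe read 3786 and 4399 units and the other 3903 and 4447 units, SoNar-high first, so these probes repeated each other.

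Srsf3, a regulator of its own transcript and of export, had probes on both sides of 0. They stood at 0.51 on a dim probe (84.7 and 68.2 units, SoNar-high first), 0.44 (10852 and 9185 units) and -0.31, with a mean of 0.22. The probe at -0.31 read 16439 units for SoNar-high and 23361 for SoNar-low, and it is the gene's value when the brightest probe is taken. Srsf7, the closest relative of Srsf3, also had probes on both sides of 0. They stood at 0.15 on a dim probe (99.2 and 103 units) and -0.39, and the mean at -0.12, the lowest of the family. The second of these probes read 11213 units for SoNar-high and 16845 for SoNar-low. Srsf5 stood at 0.13 (8384 and 8780 units). Srsf10, a splicing repressor once dephosphorylated, had probes at 0.55, 0.63 and 0.10, all 3 above 0, and Srsf6 had probes at 0.64 (11049 and 8180 units) and 0.47 (2582 and 2148). Relative to the median gene the family's median was 0.053. It was -0.11 with only the brighter probes and -0.049 after normexp background correction, 0.23 with no filter on dim probes and 0.21 with the brightest probe of each gene.

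The hnRNP proteins coat nascent transcripts, and many of them silence exons. Of 20 hnRNP genes on the array 18 had a difference, with a median of 0.43 and a range of -0.77 to 0.83. Of these, 14 lay above 0, beside 66.9% of all genes. Relative to the median gene the family's median was 0.20, and it stayed above it under each alternative run (0.074 to 0.33). It was smallest under quantile normalization (0.074), and loess on the level gave 0.095. All genes in the brightest of 4 bins by level had a median of 0.40, beside the family's 0.43. The part of brightness in the family's value was not tested. None of the 18 gene means was past 2-fold. The highest were Hnrnpm, a regulator of epithelial splice forms, at 0.83 (30753 units on SoNar-high and 19961 on SoNar-low), Hnrnpdl at 0.78 (42361 and 28327) and Hnrnpul2 at 0.74 (489 and 336). The second probe of Hnrnpdl, left out because its SoNar-low spot had an outlier flag, went the other way, with 2213 and 4516 units and a difference of -0.83.

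Hnrnpa2b1, an exon silencer that also sorts RNA for transport, was the lowest hnRNP gene at -0.77, and this mean hid opposite probes. One probe read 76.9 ± 13.5 units for SoNar-high and 451 ± 45.3 for SoNar-low, a difference of -2.35 ± 0.29. The other read 8483 ± 848 and 5594 ± 559 units, a difference of 0.80 ± 0.20, which is the gene's value when only the brighter probes or its brightest probe are taken. Hnrnpa3, its paralogue, was measured by 7 probes, of which 6 lay between 0.27 and 0.75. The seventh read 128 ± 17.6 and 517 ± 51.9 units, a difference of -1.81 ± 0.25, and the gene's mean was 0.15. The array design assigns both Hnrnpa2b1 probes to the same transcript record, and the low Hnrnpa3 probe to the record of 4 of the other 6. Which part of each transcript the probes read was not analysed here.

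**Figure D3:**
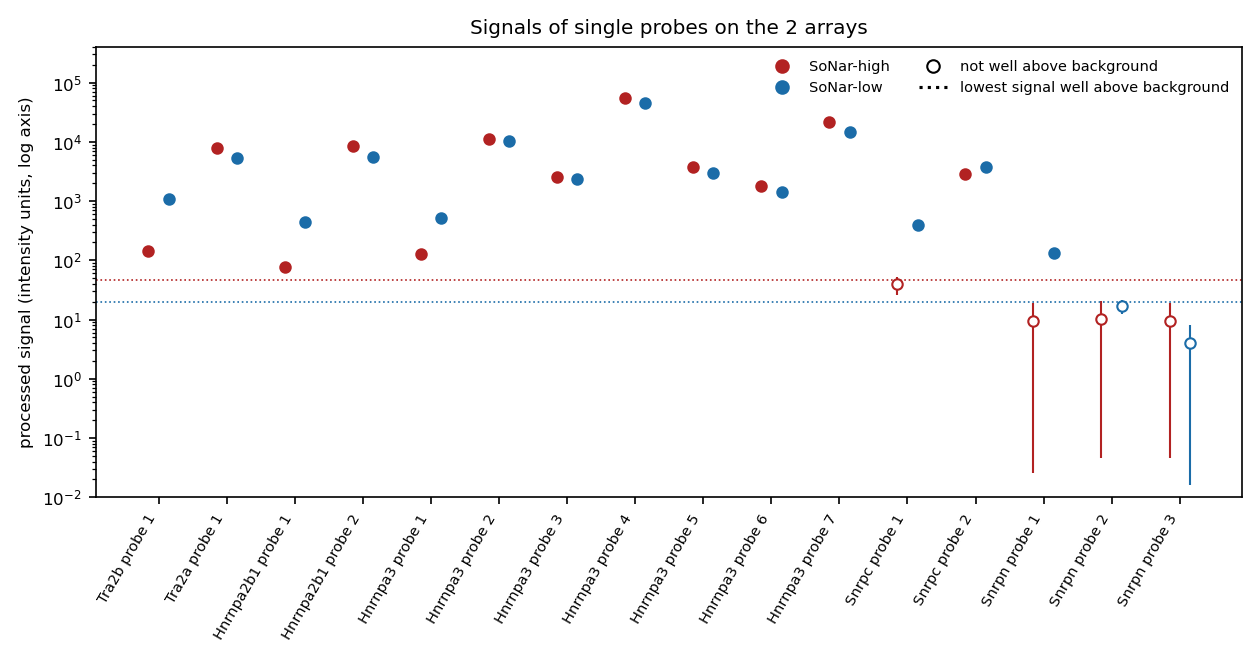
Processed signal in intensity units (log axis) of single probes of Tra2b, Tra2a, Hnrnpa2b1, Hnrnpa3, Snrpc and Snrpn on the SoNar-high (red) and SoNar-low (blue) array, with the scanner software's spot error as bars, smaller than the symbols for bright probes. Open circles are not well above background and dotted lines are each array's lowest signal that was (46.4 and 19.7 units); for Hnrnpa2b1, Hnrnpa3 and Snrpc 1 probe is far lower on SoNar-high while the others of the gene are not.

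Other A/B-type hnRNP genes also had unequal probes. Hnrnpa0 read 139 and 160 units on a dim probe (-0.01) and 7796 and 5278 on a bright one (0.76), SoNar-high first. Hnrnpab read 41647 and 47677 units on one probe (0.01) and 9912 and 6826 on the other (0.74). Hnrnpc, which packages nascent RNA and masks uridine tracts, was even in comparison, with 5598 and 4057 units (0.67) and 25409 and 20897 units (0.48). The probes of Hnrnpf, which binds G-rich runs, stood at 0.77 and 0.25, and those of Hnrnpul1, a relative of Hnrnpu, at 0.28 and -0.42. Single probes gave 0.64 for Hnrnpd, an AU-rich element binder (35232 and 25990 units), 0.58 for Hnrnph1 (22605 and 17339), 0.47 for Hnrnpr (11910 and 9859), 0.32 for Hnrnph2 (3665 and 3373) and 0.02 for Hnrnpu, a nuclear matrix protein (11055 and 12497).

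Among the remaining hnRNP genes, Hnrnpk, a poly(C)-binding protein with roles in transcription and translation, was lower than the median gene on both probes. It read 10242 against 18133 units on one probe (-0.62) and 6464 against 7595 on the other (-0.03), SoNar-high first, with a mean of -0.33. Median scaling put Hnrnpk at 0.24. It shifts every gene alike, so the place of Hnrnpk below the median gene could not change. Hnrnpl, which binds CA repeats and controls Cd45 exons in lymphocytes, stood at -0.11 (3082 and 3826 units). Its relative Hnrnpll was detected above background for SoNar-low alone (49.0 and 58.4 units). Its scaled difference was -0.05 with a software error of 0.42, so it gives no fold. Hnrnpa1, the classical antagonist of Srsf1, stood at 0.50 with probes at 0.40 and 0.60. The pair of hnRNP D genes had a median of 0.71, the 3 measured F/H genes 0.51 and the 3 U-type genes 0.02. Hnrnph3 was dim on both arrays (18.0 and 17.3 units) and gives no difference.

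The snRNP proteins had 11 genes on the array and 10 with a difference, with a median of 0.31 and a range of -0.29 to 0.58. Above 0 lay 8 of 10, beside 66.9% of all genes. The Sm ring, which is shared by the U1, U2, U4 and U5 particles, had 6 measured genes: Snrpe stood at 0.58, Snrpg at 0.41, Snrpd2 at 0.35, Snrpd3 at 0.34, Snrpd1 at 0.28 and Snrpb at 0.19. Their median was 0.35. The 3 Snrpd2 probes lay close together at 0.23, 0.44 and 0.37, whereas those of Snrpd1 stood at 0.04 (26592 and 29811 units) and 0.52 (2103 and 1687). Snrpe read 9453 and 6775 units on one probe and 4912 and 4032 on the other, SoNar-high first. Snrpf, the seventh Sm gene, had its only probe left out for an outlier flag, and that probe read 15343 and 15324 units. Relative to the median gene the family's median was 0.087, and it was -0.099 under quantile normalization, -0.082 under loess, -0.075 with only the brighter probes, -0.027 with the brightest probe of each gene and -0.099 in the series matrix.

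The proteins particular to U1 and U2 included lower values. Snrpa, the A protein of U1, stood at 0.50 (8512 and 6941 units). Snrpc, the C protein of U1 that steadies the pairing with the 5′ splice site, had a bright probe at -0.18 (2858 ± 286 and 3711 ± 371 units). Its other probe read 39.3 ± 13.8 units for SoNar-high, not well above background, and 393 ± 39.6 for SoNar-low, so that it was at least 7.36-fold lower on SoNar-high. With no filter on dim probes the mean of both put Snrpc at -1.65. Snrpa1, the A′ protein of U2, stood at -0.29 with probes at -0.61 and 0.03, and its partner Snrpb2, the B″ protein of U2, at 0.02 (4472 and 5069 units).

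Snrpn, an imprinted gene that makes a neuronal protein nearly identical to that of Snrpb, was detected above background for SoNar-low alone. One probe read 9.44 ± 9.41 units on SoNar-high and 133 ± 13.9 on SoNar-low, at least 2.49-fold lower on SoNar-high. The other 2 Snrpn probes were not well above background on either array. In all, 3 members (Snrpn, Hnrnpll and Srsf12) were well above background on SoNar-low only and 0 on SoNar-high only. Over all genes these shares were 26.4% and 0.0534%. Srsf12 was as bright on SoNar-high (39.7 units) as on SoNar-low (37.8), and it gives no fold.

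The SF3 proteins hold U2 on the branch site. All 9 genes had a difference, with a median of 0.31, 8 of 9 above 0 (66.9% of all genes) and 0 past 2-fold. Sf3b1, the subunit that is most often mutated in blood cancers, was the highest at 0.55 (482 ± 49.3 and 378 ± 38.0 units). Sf3b6, which sits at the branch adenosine, followed at 0.48, Sf3a1 stood at 0.35, Sf3b2 and Sf3a3 both at 0.31, Sf3b3 at 0.29, Sf3b4 at 0.28 and Sf3b5 at 0.10. Sf3a2 was the exception, at -0.43, with 4903 ± 490 units on SoNar-high and 7572 ± 757 on SoNar-low. The 6 SF3B genes alone spanned 0.10 to 0.55. Relative to the median gene the SF3 median was 0.087, and it was -0.091 under quantile normalization, -0.069 under loess, -0.073 with only the brighter probes and -0.062 in the series matrix.

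U2AF recognises the 3′ splice site as a dimer of U2af1, which reads the terminal AG, and U2af2, which reads the polypyrimidine tract. U2af1 stood at 0.47, with probes at 0.37 (572 and 510 units) and 0.57 (47144 and 36473 units). U2af2 stood at -0.22 on dim probes, with 128 ± 16.8 and 201 ± 20.6 units (-0.45) and 110 ± 17.3 and 126 ± 13.6 units (0.01). U2af1l4, a paralogue of U2af1, stood at -0.17, with probes at 0.12 and -0.45. U2af2 changed sign under 4 alternatives: it stood at 0.35 under median scaling, 0.02 with normexp background correction, 0.09 with quantile normalization and 0.10 in the series matrix. The 5 U2AF and Tra2 genes together had a median of -0.39 relative to the median gene. With only the brighter probes it was 0.19, over fewer genes, since Tra2b was not measured there.

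Members with several probes showed how far a gene's mean can be trusted. Of 24 members with more than 1 measured probe, the median SD between probes was 0.33, and over all 2394 such genes it was 0.32. The probes of 2 of the 24 (Hnrnpa2b1 and Hnrnpa3) spanned 2-fold or more, as did those of 16.7% of all such genes. In 10 of the 24 the probes lay on both sides of 0, a count that was not made over all such genes. Over single probes, 3 of 84 member probes were at least 2-fold lower and 0 at least 2-fold higher, against 4.62% and 2.57% of the named probes. Of the member probes, 59 of 84 (70.2%) lay within 2 software errors of the median gene, and so did 61.2% of all named probes. Several members have near-identical processed copies in the genome, among them Hnrnpa1, Hnrnpa3, Snrpe and Snrpg, and a probe may read these too.

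The members were bright genes, and the array's difference moved with brightness. When all genes were cut by level into 4 bins of equal size, the brightest bin held 40 of the 51 members. All genes of that bin had a median of 0.40 and these members one of 0.35, with 17 of 40 above the bin's median. In that bin 0.989% of all genes were at least 2-fold lower. Tra2b lay in bin 2, counted from the dimmest, where 6.16% of all genes were lower by that much. The 5 members there had a median of -0.070, and all genes of that bin one of 0.14.

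**Figure D4:**
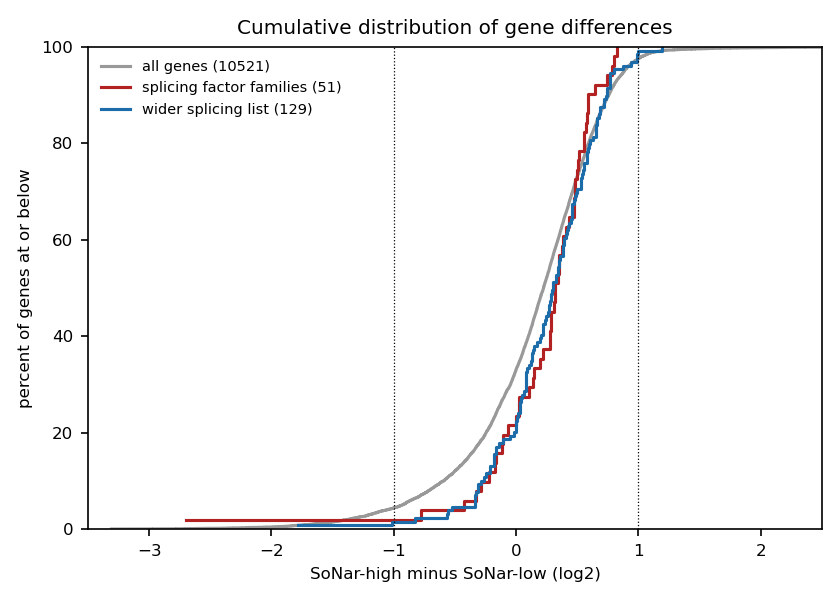
Percent of genes at or below a given difference (SoNar-high minus SoNar-low, log2) for all 10521 genes, the 51 splicing factor genes and 129 other splicing genes; dotted lines mark 2-fold. The members' curve starts at Tra2b (-2.70) and ends at Hnrnpm (0.83); 39 of 51 members and 66.9% of all genes lie above 0.

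A wider list of splicing genes outside these families, 143 in all, had 129 with a difference. Of these, 1 was called higher (2.4% of all genes) and 2 called lower (4.39% of all genes). Above 0 lay 101 (66.9% of all genes), and the median was 0.30. Under median scaling 47 were higher and 1 lower, beside 32.1% and 1.33% of all genes. Under scaling on probes above background on both arrays 0 were higher, beside 0.580% of all genes. Sart1, which joins the U4/U6 and U5 particles into the tri-snRNP, read 452 units for SoNar-high and 1786 for SoNar-low, a difference of -1.78 ± 0.21. Ptbp2, the polypyrimidine tract binding protein of neurons, read 1319 and 3057 units (-1.01). Celf5, a regulator found mostly in brain, read 299.7 and 150.8 units (1.19) on its 1 measured probe of 3.

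The Sm-like LSm ring, which caps the U6 RNA, had all 7 genes above 0, from Lsm2 (0.25) to Lsm7 (0.73), with a median of 0.53. Over all genes 66.9% lay above 0, and the median gene stood at 0.22. The SR-like and exon junction proteins had a median of 0.52 over 14 genes, from Srrm1 (-0.57) to Luc7l2, a U1-associated protein (0.94). The kinases that phosphorylate SR proteins had a median of 0.32 over 9 genes, led by Clk4 (0.76) and Clk1 (0.74), with Clk3 at -0.25. The factors of the branch site and U2 had a median of 0.39 (Smndc1 at -0.26 to Sugp1 at 0.75), and the Prp19 and catalytic-step factors one of 0.29 (Cwc27 at -0.52 to Bcas2 at 0.88). The tri-snRNP proteins had a median of 0.22 with Snu13 highest (0.76), the U1 and minor spliceosome proteins 0.26 (Snrnp48 at -0.83 to Pdcd7 at 0.99), and the helicases 0.15 (Ddx41 at -0.31 to Ddx42 at 0.58). Other RNA-binding regulators had a median of 0.30 over 29 genes, from Nono (-0.29) to Esrp1, an epithelial regulator (0.99). Of the 15 neuron-enriched regulators, 7 were measured on both arrays (median -0.22), 6 on SoNar-low only and 2 on neither.

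**Figure D5:**
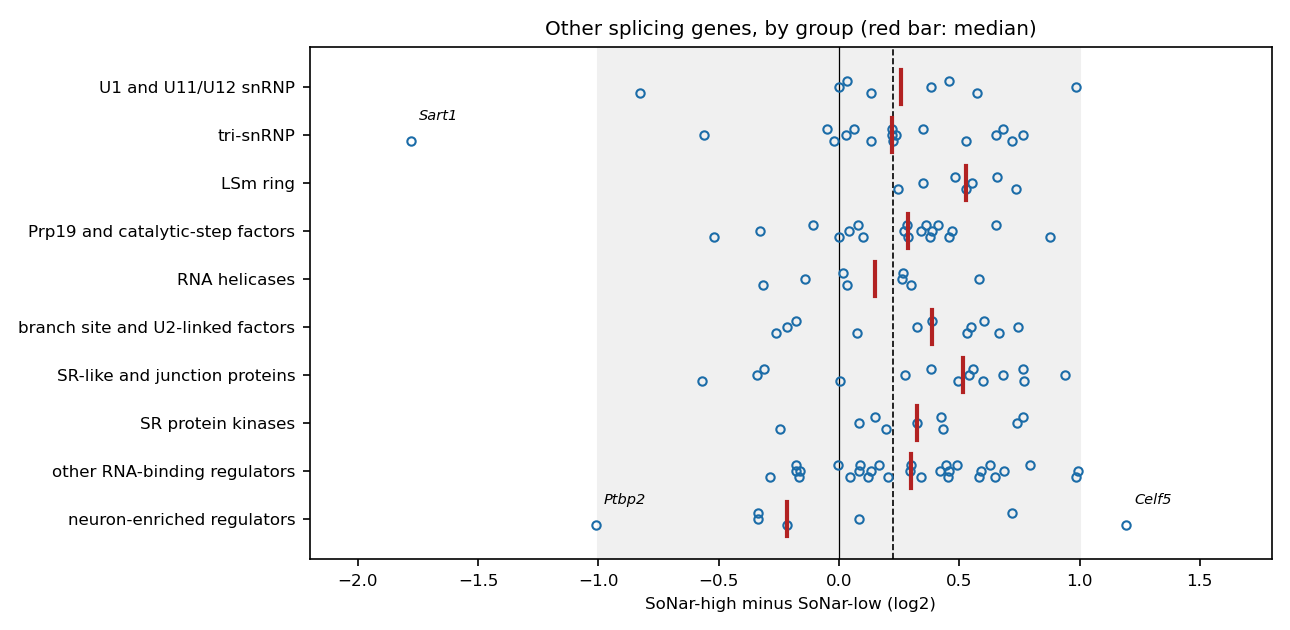
Differences between the arrays (SoNar-high minus SoNar-low, log2) of 129 splicing genes outside the SR, Tra2, hnRNP, SF3, Snrp and U2AF families, one circle per gene, with a red bar at each group's median. The band is less than 2-fold and the dashed line the median of all genes (0.22); Sart1 (-1.78), Ptbp2 (-1.01) and Celf5 (1.19) lie outside the band.

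The arrays differed as a whole. Of 43020 spots, 44.8% passed the background call for SoNar-high and 72.9% for SoNar-low. The file headers give the arrays separate scan sessions, and the scan cannot be told apart from the population. B-lineage markers were measured for 11 of 14 genes (median difference 0.42, summed signals 54191 and 48265 units), and Igll1, Rag1 and Rag2 were not well above background on either array. Neutrophil markers were measured for 10 of 10 (-0.53; 17941 and 24784 units), monocyte markers for 4 of 8 (-0.70; 381 and 598), T and NK markers for 4 of 8 (-1.06; 2334 and 3105), erythroid markers for 3 of 6 (-1.61; 23096 and 15288), brain markers for 6 of 10 (1.45; 2456 and 2950) and lung markers for 2 of 6 (-2.59; 115 and 815). Medians and sums ran opposite ways for the erythroid and brain lists. Hemgn (22791 and 14153 units, 0.89) made most of the erythroid sums, while Hba-a1 stood at -1.82 and Ermap at -1.61. Among brain markers, Rtn1, Cck and Cpe (2.93, 2.19 and 2.15) read only 31.5, 31.9 and 26.3 units on SoNar-low. Tubb3 stood at 0.76, Uchl1 at -0.21 and Snap25 at -1.04. The part of the cells these markers stand for, and of the detection difference, in the members' values was not tested. Mycn, which the sample titles name, was not detected above background for either population.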

How the data were processed

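Cy3-labelled RNA was read on 1 array per population, and the deposited scanner tables give an intensity for each spot. Agilent Feature Extraction made them, version 11.0.1.1 per the file headers and 9.1 per the submitters' processing notes. Its processed signal is background-subtracted and, per the file headers, has no scaling across arrays. The authors also deposited a matrix of log2 values with a median of 5.90 on both arrays, in the rank order of the scanner values (Spearman's rho 1.00 on each array; 0.870 for the difference between arrays over 17188 probes) and running the same way, with its centring not given in the sources used here.

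Control spots were dropped, as were spots marked non-uniform (1 on SoNar-high, 350 on SoNar-low) or as population outliers (189 and 156). None was saturated, and replicate spots were averaged on the log2 scale (39085 probes). The array's 75th percentile over probes was subtracted. The array design's accessions were matched to symbols through a RefSeq table of GRCm38.p6, which named 27115 probes of 20618 genes. Its gene positions were used to list the genes that overlap a promoter window. A probe not well above background on 1 array gives a bound: the bright array's scaled value over the dim array's detection floor. Where the dim probe's own value was above that floor, or the ratio was below 1, no fold is given. The software's error column gave the error of each spot; 197 probes printed as 10 spots had a median SD of 0.15 between spots for the difference.

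The members follow a rule on symbols, and the members and lists were chosen with earlier results of these data known. Named are all members past 2-fold, the 3 highest and 3 lowest of each family (all members in families of up to 6), the largest bounds, members with 3 or more probes spanning 2-fold, and 11 members always given; in the wider list, genes past 2-fold and the ends of each group. Other members, and probes that disagree, were named after their values were seen. Alternatives were normexp (offset 50, using median spot signals), other scalings, quantile normalization, loess (span 0.3), filters, the brightest probe, outlier spots kept, the series matrix, a background call at 3 SD of 153 negative control spots, and thresholds of 1.5-fold and 3-fold. The calling step was run on simulated data with 3-fold steps and only the noise between spots of an array. That run cannot show how often a difference between arrays is called wrongly. Software was R 4.3.3 with limma 3.58.1, and Python 3.11.15 with pandas 2.3.3, numpy 2.4.6, matplotlib 3.10.9 and statsmodels 0.14.6.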

Additional observations from a re-analysis of the deposited data

How the results depend on the processing

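No paired analysis was possible because each population has 1 array. The naming of probes by the files' own gene names was not run, because the files hold none. Of 33 named members under up to 11 alternatives, 205 of 359 values moved by less than the SD between spots and 154 moved further. A change of sign came in 40 values of 18 members, 16 of them in the 2 scalings that shift every gene alike, and 15 members, Tra2b among them, had none. The sign changes included Hnrnpa2b1 (-0.77; 0.80 with brighter probes and with the brightest probe), Hnrnpdl (0.78; -0.03 with outlier spots kept), Hnrnpk (-0.33; 0.24 under median scaling) and Hnrnpa3 (0.15; -0.15 when scaled on probes above background on both arrays). The main medians relative to the median gene were 0.098 for all members, 0.053 for SR, 0.20 for hnRNP, 0.087 for Snrp, 0.087 for SF3 and -0.39 for U2AF with Tra2. Quantile normalization gave -0.062 for all members, -0.099 for Snrp, -0.091 for SF3 and -0.11 for U2AF with Tra2, and loess gave -0.059, -0.082, -0.069 and -0.16 in the same order. No filter on dim probes gave 0.26 for all members, 0.23 for SR, 0.26 for SF3 and -0.21 for U2AF with Tra2. Brighter probes gave -0.11 for SR, -0.075 for Snrp, -0.073 for SF3 and 0.19 for U2AF with Tra2, where Tra2b was not measured. The brightest probe gave 0.21 for SR and -0.72 for U2AF with Tra2, normexp -0.19 for the latter, and the series matrix -0.099 for Snrp and -0.11 for U2AF with Tra2. The cause was not tested.

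Members at least 2-fold lower numbered 1 and became 2 when scaled on probes above background on both arrays (with Hnrnpa2b1). They became 2 with no filter on dim probes and 2 with the call by negative controls (with Snrpc). At 1.5-fold there were 2, and with brighter probes, which do not include Tra2b, 0. Over all genes the shares lower were 8.11%, 12.3%, 7.84%, 10.2% and 1.94%, in the same order. Members at least 2-fold higher numbered 0 and became 18 under median scaling (32.1% of all genes) and 5 at 1.5-fold (20.4% of all genes). In the wider list, 2 lower became 1 under median scaling (1.33% of all genes), 4 with no filter (12.3%) and 1 at 3-fold (1.26%). Its 1 higher became 47 under median scaling, 0 when scaled on probes above background on both arrays and 3 under quantile normalization. That count became 3 with the brightest probe, 3 in the series matrix, 0 with the call by negative controls, 28 at 1.5-fold and 0 at 3-fold. Of all genes, 32.1% were higher under median scaling and 20.4% at 1.5-fold. Members measured on SoNar-low only numbered 3, and 1 with the call by negative controls. Over all genes the 253 higher and 462 lower became 3380 and 140 under median scaling, 61 and 853 when scaled on probes above background on both arrays, 348 and 392 under quantile normalization, 72 and 241 with normexp, and 430 and 359 in the series matrix. Signals near the detection floor (46.4 and 19.7 units) limit what dim probes can show.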

Other observations

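Several splicing genes outside the families had probes that differed from each other, as Hnrnpa2b1 did, and they were chosen after their values were seen. Srrm1, a scaffold of SR proteins, had a probe with 10423 units on SoNar-high and 5926 on SoNar-low (1.02 on the log2 scale, SoNar-high minus SoNar-low) and another with 231 and 1179 units (-2.15). Ptbp1, the repressor of neuronal exons, had probes with 9144 and 6022 units (0.80) and with 1033 and 2089 units (-0.81). Tardbp, which encodes TDP-43, had probes at 1.16, 0.03 and -0.28, and Fubp1 had probes at 0.45 and -0.81. Creb1, a factor that binds the cAMP response element, read 558 and 418 units on its probe measured on both arrays (0.62).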
